A study of Homo sapiens with 4 samples.

Results

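Clade B serpins are the intracellular branch of the serpin family. A serpin inhibits a protease by offering an exposed reactive centre loop as bait: the protease cuts the loop, the serpin folds it into its own body, and the enzyme stays trapped. Most clade B members lack a classical secretion signal and act in the cytosol or nucleus, and several of them mark squamous and basal epithelia. They were followed here in MCF10A, an immortal line of normal human breast epithelium, after LMNA was silenced. The members are the 10 genes SERPINB1 to SERPINB9 and SERPINB13, taken by gene name from the 58051 gene identifiers listed in both deposited tables, which hold 13 numbered clade B genes in all.

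The study compared MCF10A cells transfected with an siRNA against LMNA (siLMNA) with MCF10A cells given an siRNA against LacZ, a gene these cells do not carry (siLacZ, labelled as the wild type), each at 50 nM and collected at 48 h. LMNA encodes lamins A and C of the nuclear lamina. Each group had 2 poly(A) RNA-seq libraries. The labels name neither the siRNA sequences nor separate cultures for the replicates. The p-values therefore rest on the spread between these libraries alone, and that spread may be technical. In this bulk RNA, fewer cells of a type and less RNA per cell cannot be told apart.

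The libraries held 44472819 and 44236621 counts in siLMNA 1 and 2, against 42809595 and 46191091 in siLacZ 1 and 2. LMNA was at 61.1 and 58.1 CPM (counts scaled to library size, with TMM factors) in the siLMNA libraries, against 480 and 524 CPM in the siLacZ libraries, a log2 fold change of -3.07 (SE 0.077, n = 2 per group; edgeR adjusted p = 2.98e-15). All 7 basal mammary markers of the list, KRT5 and TP63 among them, were expressed and tested. Of these, 5 rose, 1 fell and 1 did not pass (edgeR adjusted p under 0.05), where 26.5% of all tested genes rose and 27.8% fell. KRT14 fell, at 2555 and 2513 CPM in siLMNA, against 4705 and 4723 CPM in siLacZ (log2 fold change -0.90, SE 0.061). LAMB3 rose with a log2 fold change of 1.82 (SE 0.068), and KRT5 was the marker that did not pass. Of the 10 leukocyte markers 1 had enough counts to be tested, and PTPRC, the pan-leukocyte marker, had 0 and 1 counts in the siLMNA libraries and 0 and 0 in the siLacZ libraries.

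Of the 10 clade B serpins, 9 had enough counts to be tested and all 9 passed: 5 were higher and 4 lower in siLMNA (adjusted p under 0.05 in edgeR's quasi-likelihood test). The background is wide, since 54.3% of the 18540 tested genes passed the same rule, 26.5% by a rise and 27.8% by a fall. A change of at least 2-fold, with the same adjusted p, was found for 4 of the 9, against 18.4% of tested genes (11.3% risen and 7.15% fallen). These 4 were SERPINB2, SERPINB3 and SERPINB4, which rose, and SERPINB13, which fell. The median log2 fold change of the 9 was 0.27, beside -0.01 over all tested genes. In each of the 9 the siLMNA libraries did not overlap the siLacZ libraries, as in 76.0% of tested genes.

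**Figure D1:**
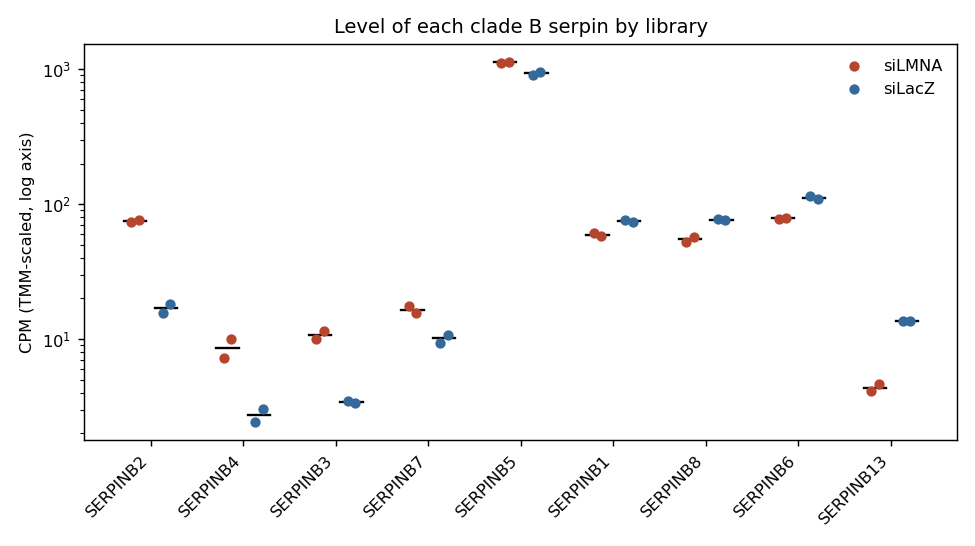
Level of the 9 tested clade B serpins in each library, in TMM-scaled CPM on a log axis. Red points are the 2 siLMNA libraries, blue points the 2 siLacZ libraries, and the black line is the mean of a group. SERPINB2 stands at 73.9 and 76.8 CPM after LMNA siRNA and at 15.7 and 18.1 CPM in the control, and SERPINB5 lies far above the other members in all 4 libraries.

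SERPINB2, plasminogen activator inhibitor 2, had the largest change of the family. It is a stress- and inflammation-inducible serpin that inhibits urokinase. SERPINB2 (ENSG00000197632, hg38 chr18:63871692-63903890, plus strand) was at 73.9 and 76.8 CPM in siLMNA, against 15.7 and 18.1 CPM in siLacZ. Both siLMNA libraries were more than 4 times above the higher control library. The group means were 75.4 ± 2.04 CPM in siLMNA and 16.9 ± 1.65 CPM in siLacZ (SD, n = 2 each), and the log2 fold change was 2.16 (SE 0.086; edgeR adjusted p = 1.25e-12), a 4.46-fold rise. In the authors' deposited table the log2 fold change of SERPINB2 was 2.23 in pair 1 and 2.03 in pair 2. The 547 exon bases that SERPINB2 shares with SERPINB10 on the same strand could receive reads of either gene, but SERPINB10 itself had 0 and 5 counts in siLMNA and 6 and 10 in siLacZ.

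SERPINB3 and SERPINB4, the squamous cell carcinoma antigens, rose side by side. SERPINB3 inhibits papain-like cysteine proteases such as cathepsins L, S and K, whereas SERPINB4 inhibits the chymotrypsin-like serine proteases cathepsin G and mast cell chymase. SERPINB3 (ENSG00000057149, hg38 chr18:63655197-63661963, minus strand) was at 10.0 and 11.4 CPM in siLMNA, against 3.47 and 3.38 CPM in siLacZ. SERPINB4 (ENSG00000206073, hg38 chr18:63637259-63644298, minus strand) was at 7.19 and 10.1 CPM in siLMNA, against 2.44 and 3.05 CPM in siLacZ. The siLMNA libraries lay above the control libraries for both genes, with a wider gap between the siLMNA libraries for SERPINB4. The log2 fold changes were 1.65 (SE 0.14; edgeR adjusted p = 3.52e-08) for SERPINB3 and 1.65 (SE 0.19; edgeR adjusted p = 8.13e-07) for SERPINB4.

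The 2 genes are near copies, so the authors' counting could have divided their reads. Their coding sequences, both 1173 bases long in GENCODE 29, were 95.2% identical, with 56 differing bases and a longest identical run of 129 bases. Of all 50-base stretches of the SERPINB4 coding sequence, 23.1% also occurred in that of SERPINB3. Among the other 44 pairs of members no 50-base stretch was shared. The differences were dense in the last exon, exon 8, where the reactive centre loop is encoded. The loop-coding stretch is shown because it is the part that decides which protease each protein takes, and because a read across it can be assigned to one copy. Capitals mark the 10 of 87 bases that differ (hg38, coding strand, chr18:63655732-63655818 for SERPINB3 and chr18:63637794-63637880 for SERPINB4).
SERPINB3: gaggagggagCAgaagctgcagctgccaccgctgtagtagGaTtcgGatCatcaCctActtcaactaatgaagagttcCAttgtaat
SERPINB4: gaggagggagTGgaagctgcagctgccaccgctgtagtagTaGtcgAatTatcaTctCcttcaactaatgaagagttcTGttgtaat
The 60 bases just before the loop held another 10 differences, the densest stretch of that length in the alignment (chr18:63655819-63655878 and chr18:63637881-63637940).
SERPINB3: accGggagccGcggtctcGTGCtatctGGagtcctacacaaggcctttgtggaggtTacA
SERPINB4: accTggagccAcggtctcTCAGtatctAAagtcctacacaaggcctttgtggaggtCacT
Over the loop, 8 of 29 codons encode a different residue, against 32 of 390 over the whole protein.

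Summed, SERPINB3 and SERPINB4 were at 17.2 and 21.5 CPM in siLMNA, against 5.91 and 6.43 CPM in siLacZ, a ratio of group means of 3.14 that does not depend on how reads were divided between them. SERPINB3 took 58.2% (95% Wilson interval 54.6 to 61.7%) and 53.2% (50.0 to 56.4%) of their joint counts in siLMNA 1 and 2. In siLacZ 1 and 2 it took 58.7% (52.7 to 64.5%) and 52.6% (47.0 to 58.2%). The shares overlapped between the groups. SERPINB3 also shares 620 exon bases with SERPINB11 on the opposite strand, and SERPINB11 was listed at 0 in all 4 libraries.

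SERPINB13, also called hurpin or headpin, was the member with the largest fall. It is a squamous epithelial serpin that inhibits cathepsins L and K, and its coding sequence stood closer to those of SERPINB3 (67.6% identical) and SERPINB4 (67.3%) than to any other member's. SERPINB13 (ENSG00000197641, hg38 chr18:63586989-63604639, plus strand) was at 4.12 and 4.63 CPM in siLMNA, against 13.5 and 13.7 CPM in siLacZ. The 2 groups were far apart, with little spread within either. The log2 fold change was -1.64 (SE 0.13; edgeR adjusted p = 9.26e-09), so the level in siLacZ was 3.11 times that in siLMNA. SERPINB3, SERPINB4 and SERPINB13, relatives in sequence and neighbours on chromosome 18, thus changed in opposite directions by a like factor.

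SERPINB5, SERPINB7 and SERPINB8 are the other members with a known place in epithelia. SERPINB5, or maspin, is a myoepithelial and basal epithelial serpin studied as a tumour suppressor in breast, and it does not act as a protease inhibitor. The translated coding sequences were searched with a pattern of the hinge that lets the loop insert. The pattern asked for glutamate, glycine and glutamate at alternate positions and a later alanine, not for a run of alanines. It occurred before the conserved histidine, proline and phenylalanine in 9 of the 10 members, and SERPINB5 was the one without it. SERPINB5 (ENSG00000206075, hg38 chr18:63476761-63505085, plus strand) was at 1117 and 1133 CPM in siLMNA, against 905 and 962 CPM in siLacZ. It rose by a small amount, 0.27 on the log2 scale (SE 0.065; edgeR adjusted p = 0.00189). That is 1.21-fold, and it did not pass the edgeR test for a change beyond 1.5-fold (adjusted p = 1.00).

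SERPINB7, or megsin, is a serpin of the upper epidermis whose loss causes Nagashima-type palmoplantar keratosis. SERPINB7 (ENSG00000166396, hg38 chr18:63752935-63805376, plus strand) was at 17.6 and 15.5 CPM in siLMNA, against 9.40 and 10.8 CPM in siLacZ. The groups did not overlap, and the log2 fold change was 0.71 (SE 0.12; edgeR adjusted p = 5.03e-05). It did not pass the edgeR test for a change beyond 1.5-fold (adjusted p = 0.186). The authors' deposited table gave SERPINB7 a log2 fold change of 0.90 in pair 1 and 0.47 in pair 2.

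SERPINB8, which inhibits the proprotein convertase furin and whose loss causes a peeling skin disorder, fell. SERPINB8 (ENSG00000166401, hg38 chr18:63969925-64019779, plus strand) was at 52.9 and 57.6 CPM in siLMNA, against 77.4 and 76.1 CPM in siLacZ. Its log2 fold change was -0.48 (SE 0.074; edgeR adjusted p = 3.29e-05), and it did not pass the edgeR test for a change beyond 1.5-fold (adjusted p = 1.00). Of its exon bases, 370 are shared with HMSD on the same strand and 257 with an antisense RNA. HMSD had 0 counts in both siLMNA libraries and 0 and 2 in the siLacZ libraries, and the antisense RNA had 7 and 3 in siLMNA and 16 and 14 in siLacZ.

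SERPINB1, SERPINB6 and SERPINB9 lie together on chromosome 6 and protect cells from granule proteases. SERPINB1 inhibits neutrophil elastase, proteinase 3 and cathepsin G. SERPINB1 (ENSG00000021355, hg38 chr6:2832332-2842006, minus strand) was at 61.3 and 57.6 CPM in siLMNA, against 76.5 and 73.9 CPM in siLacZ. It fell by 0.34 on the log2 scale (SE 0.073; edgeR adjusted p = 0.000765). SERPINB6 inhibits cathepsin G and is needed in the inner ear. SERPINB6 (ENSG00000124570, hg38 chr6:2948159-2972165, minus strand) was at 78.3 and 79.6 CPM in siLMNA, against 115 and 109 CPM in siLacZ, and fell by 0.50 on the log2 scale (SE 0.071; edgeR adjusted p = 9.63e-06). In both genes each siLMNA library lay below each siLacZ library, and in neither did the fall pass the edgeR test for a change beyond 1.5-fold (adjusted p = 1.00 for each).

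SERPINB9, the inhibitor of granzyme B in cytotoxic lymphocytes and immune-privileged cells, was listed at 0 counts in all 4 libraries. A count of 0 allows up to 3 counts, or 0.0702 and 0.0698 CPM in siLMNA 1 and 2 and 0.0671 and 0.0635 CPM in siLacZ 1 and 2 (counting error only). SERPINB9 (ENSG00000170542, hg38 chr6:2887266-2903280, minus strand) therefore gave no comparison. Its flanking genes SERPINB1 and SERPINB6 were each above 57 CPM in every library.

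**Figure D2:**
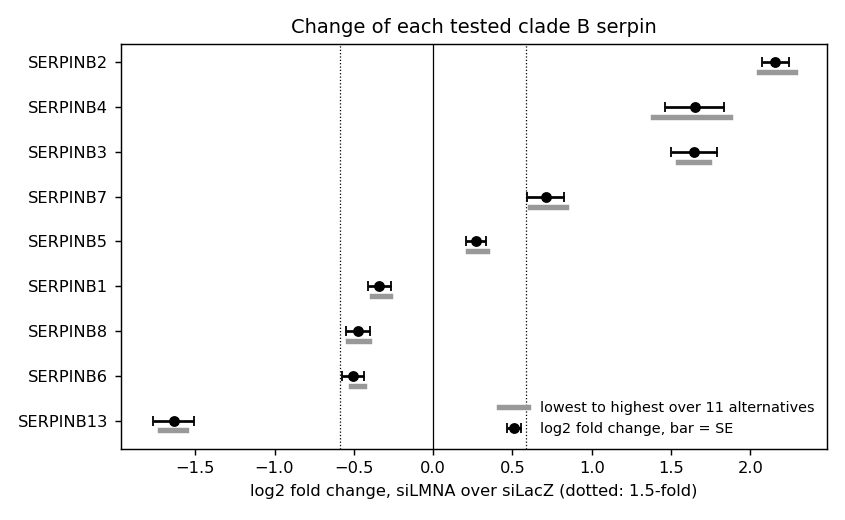
Log2 fold change (siLMNA over siLacZ) of the 9 tested members, with black points for the estimate, black bars for its SE and grey bars for the lowest and highest value over the 11 alternative settings. Dotted lines mark 1.5-fold. The values run from 2.16 for SERPINB2 to -1.64 for SERPINB13, and no grey bar crosses 0.

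In the edgeR test for a change beyond 1.5-fold, 3 members rose (SERPINB2, SERPINB3 and SERPINB4) and 1 fell (SERPINB13), where 11.4% and 9.36% of tested genes rose and fell by that rule. The other 5 tested members, with log2 fold changes between -0.50 and 0.71, did not pass it.

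As a family the clade B serpins were dominated by SERPINB5. The 10 members summed to 1423 and 1447 CPM in siLMNA, against 1219 and 1270 CPM in siLacZ. SERPINB5 made up 78.4 ± 0.141% of that sum in siLMNA and 75.0 ± 1.02% in siLacZ (SD, n = 2 each). It thus carried most of the rise of the sum. Without SERPINB5 the sum was 305 and 313 CPM in siLMNA, against 313 and 308 CPM in siLacZ, and the groups overlapped. The ratio of the group means was 0.995 with TMM factors, 1.01 with DESeq2 size factors and 1.04 with upper-quartile factors. With upper-quartile factors the groups did not overlap, at 312 and 321 CPM in siLMNA, against 307 and 300 CPM in siLacZ. The makeup of that sum differed between the groups. SERPINB2 took 24.4 ± 0.209% of it in siLMNA and 5.44 ± 0.596% in siLacZ. SERPINB6 took 25.5 ± 0.153% in siLMNA and 36.0 ± 0.875% in siLacZ, and SERPINB8 took 17.8 ± 0.741% in siLMNA and 24.7 ± 0.00470% in siLacZ. SERPINB13 took 1.41 ± 0.0906% in siLMNA and 4.38 ± 0.0858% in siLacZ.

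**Figure D3:**
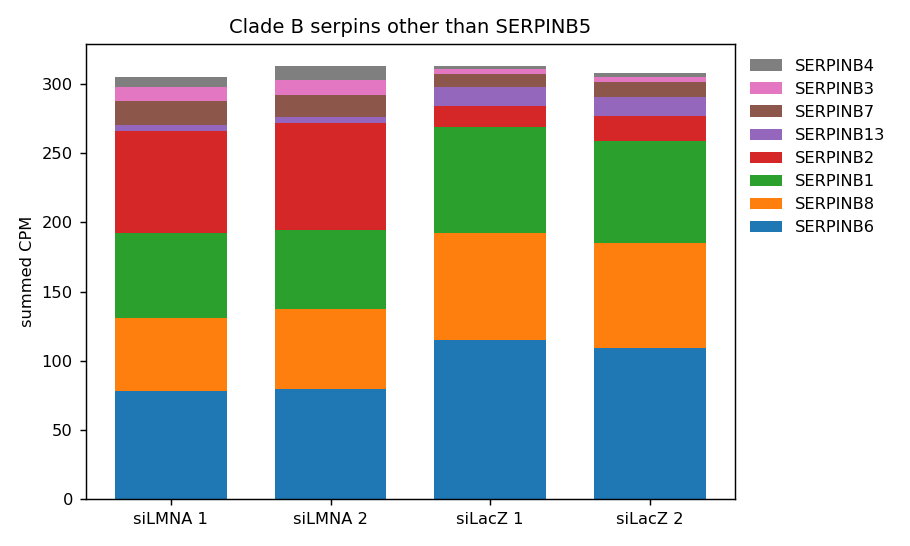
Summed level of the clade B serpins other than SERPINB5 in each library, in CPM, with 1 colour per gene. The bars reach 305 and 313 CPM in siLMNA 1 and 2 and 313 and 308 CPM in siLacZ 1 and 2, while the SERPINB2 block is taller and the SERPINB6, SERPINB8 and SERPINB13 blocks are shorter in siLMNA.

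Per kilobase of merged exon, which allows levels of different genes to be set side by side, the order of the members differed between the groups. In siLMNA the levels were 286 ± 2.91 CPM per kilobase for SERPINB5, 27.4 ± 0.743 for SERPINB2, 19.2 ± 0.839 for SERPINB1 and 9.41 ± 0.565 for SERPINB8 (SD, n = 2). SERPINB7 (6.27 ± 0.546 CPM per kilobase), SERPINB3 (6.03 ± 0.578) and SERPINB6 (5.98 ± 0.0747) followed and did not differ beyond their spread, and SERPINB4 (4.28 ± 1.01) and SERPINB13 (0.965 ± 0.0796) came last. SERPINB5 led by a wide margin in either group. In siLacZ, SERPINB5 stood at 237 ± 10.1 CPM per kilobase, SERPINB1 at 24.3 ± 0.601, SERPINB8 at 13.1 ± 0.151, SERPINB6 at 8.49 ± 0.306 and SERPINB2 at 6.15 ± 0.601. SERPINB7 (3.83 ± 0.379 CPM per kilobase), SERPINB13 (3.00 ± 0.0235), SERPINB3 (1.93 ± 0.0331) and SERPINB4 (1.36 ± 0.213) came after them. SERPINB2 was thus the fifth gene of the family in the control and the second after LMNA siRNA. The place of SERPINB6 depends on the length used: it has 26 annotated transcripts, and per kilobase of its longest transcript it stood at 14.0 CPM per kilobase in siLMNA, above SERPINB7 and SERPINB3. The levels of SERPINB2, SERPINB3 and SERPINB4 could be too low if the authors' counting dropped reads that match another gene too. SERPINB2 shares 19.9% and SERPINB3 34.9% of its exon bases with another gene, and SERPINB4 is a near copy of SERPINB3.

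The members lie in 2 clusters, 7 within 543 kilobases on chromosome 18 and 3 within 140 kilobases on chromosome 6. On chromosome 18, in order along the plus strand, SERPINB5 rose slightly, SERPINB13 fell, SERPINB4, SERPINB3, SERPINB7 and SERPINB2 rose, and SERPINB8 fell, so the direction changed 3 times along the cluster. On chromosome 6 both expressed members fell. Of the 10 tested genes within 1000000 bases of the chromosome 18 cluster, 0 rose, 3 fell and 7 did not pass (edgeR; median log2 fold change -0.34). The nearest expressed gene before SERPINB5 is VPS4B, of endosomal sorting, at 120 CPM in siLMNA and 112 CPM in siLacZ (log2 fold change 0.10, SE 0.068; edgeR adjusted p = 0.244). PHLPP1, a phosphatase, fell by 0.73 (SE 0.090) on the log2 scale. Of the 18 tested neighbours on chromosome 6, 8 rose, 4 fell and 6 did not pass. For both sets of neighbours the background is 26.5% of all tested genes risen and 27.8% fallen. PXDC1 (log2 fold change 2.29, SE 0.11) and the tubulin gene TUBB2A (1.63, SE 0.13) rose there, while SERPINB1 and SERPINB6 fell.

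**Figure D4:**
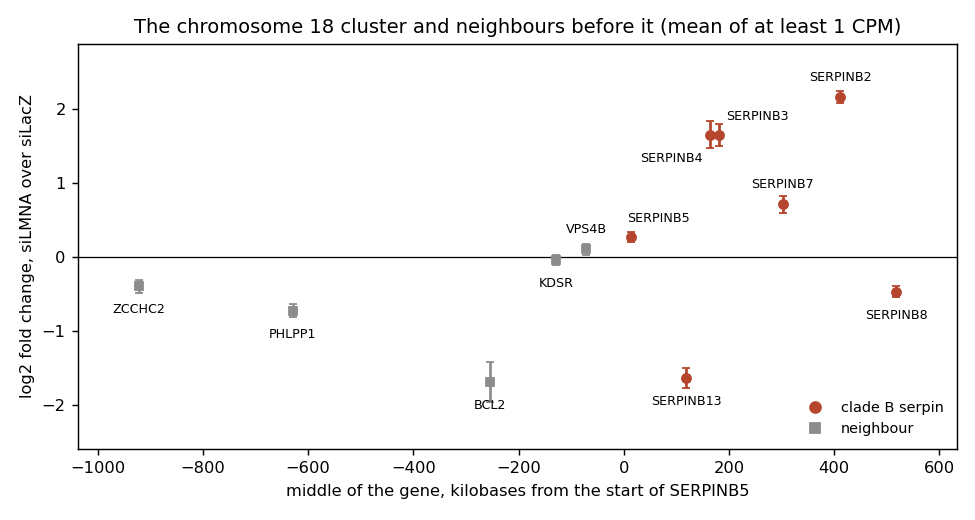
Log2 fold change (siLMNA over siLacZ, bars are the SE) against the position of the middle of each gene, in kilobases from the start of SERPINB5. Red circles are the clade B serpins on chromosome 18 and grey squares are the genes before SERPINB5 that averaged 1 CPM or more. The 2 genes inside SERPINB5 are not drawn. SERPINB13 at -1.64 lies next to SERPINB4 at 1.65, the first of 4 rising serpins in a row, and SERPINB8 at -0.48 ends the cluster.

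RefSeq promoter windows (GRCh38.p14, 250 bases before to 50 after a start listed by RefSeq) were found for all 10 members, 15 windows in all. Every start in this paragraph is such a RefSeq start, which can differ from the gene start in the GENCODE coordinates given above. The windows were searched for TGANTCA, a pattern that reads the same on both strands and takes any base in the middle. It is looser than the consensus motif of AP-1 (FOS and JUN), which has C or G there. This loose pattern occurred in 6 of the 15 windows, belonging to 5 of the 10 members, and in 7.71% of all promoter windows. The 5 members are SERPINB2, SERPINB5 and SERPINB7, which rose, and SERPINB8 and SERPINB13, which fell. One stretch of 37 bases for each is shown, since these are the members of both directions that match the same pattern, in capitals. In the stretches shown, the middle base is A in SERPINB2 and SERPINB5, G in SERPINB7 and SERPINB8, and C in SERPINB13. They lie on the plus strand at chr18:63887588-63887624 (SERPINB2), chr18:63476797-63476833 (SERPINB5), chr18:63775364-63775400 (SERPINB7, a window at an alternative start), chr18:63970038-63970074 (SERPINB8) and chr18:63587241-63587277 (SERPINB13).
SERPINB2: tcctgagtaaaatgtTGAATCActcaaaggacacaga
SERPINB5: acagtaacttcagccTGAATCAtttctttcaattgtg
SERPINB7: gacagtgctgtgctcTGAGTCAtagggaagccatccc
SERPINB8: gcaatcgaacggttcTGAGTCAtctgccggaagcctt
SERPINB13: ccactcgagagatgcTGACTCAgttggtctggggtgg
In the order shown, the motif began 102, 146, 39, 28 and 87 bases before the RefSeq start of its window. SERPINB7 and SERPINB8 held a further match each in the same window, with T in SERPINB7 and A in SERPINB8 in the middle, outside the consensus. The share of all windows that hold the stricter consensus was not counted. Each stretch shown lies inside the GENCODE span of its gene, downstream of the GENCODE start. For SERPINB2 the stretch begins at 63887588 and the GENCODE gene at 63871692. A TATAAA box on the gene's strand, present in 7.33% of all windows, lay 30 bases before the start of SERPINB2 and of SERPINB9, and elsewhere in windows of SERPINB6, SERPINB7, SERPINB8 and SERPINB13. The 300-base windows of SERPINB3 and SERPINB4 differed at 4 bases, and neither held TGANTCA. Both held CATTCC, the motif of TEAD factors, 8 bases before the start, and no window of another member did, beside 14.0% of all windows (searched on both strands). The cyclic AMP response element TGACGTCA was in no member's window and in 1.85% of all windows. A match describes the sequence and is not evidence of binding.

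Proteases were read from the same fit, in a list that holds known targets of clade B serpins and other proteases of epithelia. Of 29 listed proteases 18 were tested, of which 7 rose, 7 fell and 4 did not pass (median log2 fold change -0.05). By the same rule 26.5% of all tested genes rose and 27.8% fell. PLAU, encoding urokinase, the target of SERPINB2, was at 851 and 906 CPM in siLMNA, against 54.5 and 60.2 CPM in siLacZ (log2 fold change 3.94, SE 0.080). Both siLMNA libraries were far above both control libraries. SERPINB2 itself had a log2 fold change of 2.16, and the difference between the genes was not tested. PLAT, encoding tissue plasminogen activator, fell by 0.63 (SE 0.079) on the log2 scale. Of the targets of SERPINB3 and SERPINB13, CTSL (cathepsin L) fell by 0.48 (SE 0.073) and CTSK (cathepsin K) rose by 0.55 (SE 0.17) on the log2 scale. CTSS (cathepsin S) was at 4.40 CPM in siLMNA and 4.50 CPM in siLacZ and did not pass (edgeR adjusted p = 0.891). CTSB (cathepsin B) rose with a log2 fold change of 2.42 (SE 0.071), and CTSV (cathepsin V) with 1.20 (SE 0.13). FURIN, the target of SERPINB8, rose by 0.41 (SE 0.071) while SERPINB8 fell.

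For several members, known targets among the granule proteases were nearly absent from these cells. Other listed proteases were expressed. CASP1, CASP4 and CASP8 were at 15.8, 67.0 and 48.0 CPM in siLMNA, against 25.7, 70.1 and 58.4 CPM in siLacZ. CTSG (cathepsin G), a target of SERPINB1, SERPINB4 and SERPINB6, and GZMB (granzyme B), a target of SERPINB9, were at 0 counts in all 4 libraries. ELANE (neutrophil elastase), a target of SERPINB1, had 4 and 0 counts in siLMNA and 6 and 0 in siLacZ, and PRTN3 (proteinase 3) had 0 and 2 in siLMNA and 0 and 4 in siLacZ. CMA1 (chymase), a target of SERPINB4, had 4 and 4 counts in siLMNA and 8 and 7 in siLacZ.

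**Figure D5:**
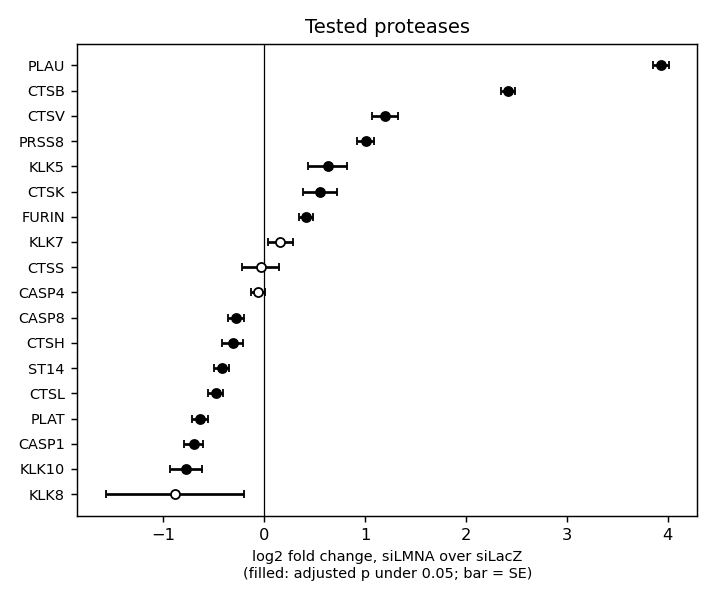
Log2 fold change (siLMNA over siLacZ, bars are the SE) of the 18 tested proteases, with filled points for an edgeR adjusted p under 0.05. PLAU at 3.94 and CTSB at 2.42 stand highest.

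The serpins of other clades, most of them secreted, give a comparison within the superfamily. Of 21 listed genes 12 were tested, of which 7 rose, 1 fell and 4 did not pass (edgeR). Among all tested genes 26.5% rose and 27.8% fell. The median log2 fold change of the 12 was 0.75, beside 0.27 for the clade B members, and the difference between the lists was not tested. SERPINE2 (protease nexin 1) was at 170 and 178 CPM in siLMNA, against 11.6 and 14.9 CPM in siLacZ. SERPINE2, SERPINA5 (protein C inhibitor) and SERPINH1 (the collagen chaperone HSP47) had log2 fold changes of 3.71 (SE 0.10), 1.16 (SE 0.13) and 0.87 (SE 0.075). The 3 numbered clade B genes that are no member, SERPINB10, SERPINB11 and SERPINB12, had at most 10 counts in any library and were not tested.

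Several members are also read as markers of squamous differentiation, and the differentiation genes moved in both directions as they did. Of 35 tested genes on that list 12 rose, 16 fell and 7 did not pass (median log2 fold change -0.26). The shares over all tested genes, 26.5% risen and 27.8% fallen, stand beside this and the marker counts below. SPRR1B, a cornified envelope precursor, was at 1.99 and 1.95 CPM in siLMNA, against 47.2 and 50.1 CPM in siLacZ. KRT15, a basal keratin, TGM1, the keratinocyte transglutaminase, and SPINK5, a secreted inhibitor of kallikreins, fell with log2 fold changes of -3.18 (SE 0.085), -2.85 (SE 0.077) and -2.87 (SE 0.17). Among the genes that rose were IVL (involucrin, another envelope precursor; log2 fold change 2.82, SE 0.12) and KRT17 (a stress keratin; 2.00, SE 0.071), both named after their values were seen. Of the members placed in squamous, basal or skin epithelia above, SERPINB13 and SERPINB8 fell, while SERPINB3, SERPINB4, SERPINB5 and SERPINB7 rose. Among these, SERPINB5, SERPINB7 and SERPINB8 did not pass the test for a change beyond 1.5-fold. Markers of other cell types moved as well: 5 of 6 tested fibroblast markers rose and 0 fell, where 26.5% of all tested genes rose and 27.8% fell. The 8 listed fibroblast markers summed to 1046 and 1099 CPM in siLMNA, against 204 and 210 CPM in siLacZ. Nearly all of that sum was DCN, FAP and COL1A1, which are extracellular matrix and stromal genes. PDGFRA rose on 22 and 10 counts in siLMNA, against 2 and 1 in siLacZ, and PDGFRB did not pass. THY1 had 0 and 2 counts in siLMNA and 0 and 4 in siLacZ, and COL1A2 had 10 and 20 against 0 and 0. Neither was tested. The 10 leukocyte markers summed to 34.2 and 28.1 CPM in siLMNA, against 25.3 and 25.9 CPM in siLacZ, nearly all from CD14, with CD3E and TYROBP at 0 in every library. The 5 markers of upper-layer keratinocytes summed to 42.7 and 36.3 CPM in siLMNA, against 78.3 and 74.0 CPM in siLacZ, with LOR at 0. Nearly all of that sum was KRT10, a keratin of differentiating layers, at 40.4 and 33.4 CPM in siLMNA, against 75.7 and 71.4 CPM in siLacZ. Of the 3 tested markers of this list KRT10 fell, FLG did not pass, and SPRR2G rose, with 11 and 14 counts in siLMNA and 0 in both siLacZ libraries. Of the luminal breast markers 3 of 7 tested rose and 0 fell, and of the endothelial markers 2 of 4 rose and 0 fell. The luminal risers were KRT8, KRT7 and ESR1, the last on 60 and 59 counts in siLMNA, against 35 and 38 in siLacZ. The endothelial list was low, summing to 15.5 and 14.9 CPM in siLMNA, against 11.9 and 12.4 CPM in siLacZ. Its risers were PECAM1 (5.35 CPM in siLMNA, 3.81 CPM in siLacZ) and TEK (48 and 54 counts in siLMNA, 6 and 24 in siLacZ). The part of these shifts in the serpin changes was not tested.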

How the data were processed

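Per the labels' protocols, cells were transfected with 50 nM siRNA and 4 uL of RNAiMAX and collected at 48 h for poly(A) capture. The submitters' processing notes name the build hg38. The sources used here give no aligner, counter or strand setting, so reads of overlapping genes cannot be told apart. There are 2 tables deposited by the authors, holding raw counts of 1 siLMNA and 1 siLacZ library each. Their normalized signal, which equals the count times 1 factor per library, served to check rows, and the authors' deposited log2 fold changes are quoted for 2 members. The 6 genes whose counts and normalized values contradict each other (relative tolerance 1e-06) were left out (they contradict in siLMNA libraries alone); no member was among them. The table of pair 1 has 3 unnamed columns, which were not used.

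Counts were fitted with edgeR 4.0.16 (R 4.3.3; quasi-likelihood test, TMM factors, filterByExpr, group as the single term, Benjamini-Hochberg adjustment at 0.05 over 18540 genes). The SE is the log2 fold change divided by the square root of F. The procedure was tested on simulated counts. The chi-square between the libraries of a group was 7.04 per degree of freedom in siLMNA and 9.29 in siLacZ, above sampling noise. That does not show separate cultures; the libraries were used as the labels list them, 2 samples per group. Of genes with 1 to 20 counts, 68.5 to 70.0% had an even count per library, so intervals, which cover counting error only, may be too narrow. Coordinates, lengths and coding sequences are from GENCODE 29 (57447 of 58051 identifiers matched). Coding sequences were aligned with Biopython 1.88. The members and gene lists were chosen with earlier results of these data known. From each list, up to 4 genes with a mean of at least 5 CPM were named by size of change; proteases, marker genes, neighbours at the cluster's edge and overlapping genes outside that rule are named for their relation to a member. Some listed genes are not reported here by name.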

Additional observations from a re-analysis of the deposited data

How the results depend on the processing

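Under 11 alternatives (DESeq2 size factors, upper-quartile factors, no low-count filter, the DESeq2 1.42.0 test, the replicate block, a minimum change of 1.5-fold, contradicting rows kept, and each library left out), the 9 tested members kept their direction in all 99 values and their call in 94. The other 5 were SERPINB1, SERPINB5, SERPINB6, SERPINB7 and SERPINB8 against the minimum change of 1.5-fold, where 4 members passed, 3 risen and 1 fallen. The minimum-change rule reuses the main estimates and alters only the p-values, so its 9 directions could not differ. By that rule 3846 of all tested genes passed, 2111 risen and 1735 fallen. When 1 library was left out, 9 members passed each time, 5 risen and 4 fallen; the lone library of a group was then assumed to vary like the 2 of the other group, which alone set the spread. Over all genes 7161 to 8822 passed in these fits, with 3495 to 4267 risen and 3536 to 4605 fallen. The fewest passed without a siLacZ library. The labels do not say that replicate numbers pair the libraries, and same-numbered libraries did not deviate together (correlation -0.034); with the replicate block 9 members and 9963 genes passed. With upper-quartile factors the summed clade B level in siLMNA was 1469 CPM, against 1435 CPM with TMM. With each library left out, that sum was 1423 to 1447 CPM in siLMNA and 1219 to 1270 CPM in siLacZ, and the sum of SERPINB3 and SERPINB4 was 17.2 to 21.5 CPM in siLMNA and 5.91 to 6.43 CPM in siLacZ. SERPINB9 and the granule proteases lie at or near 0 counts, so no change in them could be measured.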
